A study of Mus musculus with 29 samples.

Results

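The mitosis genes described here are 40 genes that act while a cell enters and passes through division. They were chosen by name, with earlier results of these data known. A gene was measured where the array had a transcript cluster annotated with that symbol alone, which held for 38 of the 40. Ccnb1 and Foxm1 had no such cluster and have no value here. The 38 genes were among 30142 genes with a cluster of their own, of which 22063 passed the filter on low values, and all 38 passed. The filter asked for a level above the median of all clusters on the same array in at least 2 arrays. Of the 38 genes, 36 exceeded that median in all 29 arrays, and Birc5, with 25 arrays, did so least often. In every array that median lay below the median of the negative control probe sets. Exceeding it therefore does not show signal above background.

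The series followed mouse embryonic stem cells through neural differentiation in culture, in a wild-type line (WT) and in a line labelled BERKO, a knockout of estrogen receptor beta (ERb, gene Esr2). The 14 groups were WT and BERKO stem cells (mESC), and WT and BERKO neural precursor cells (NPC), midbrain neural precursors (mDPC) and cells labelled midbrain neurons (MN), each without and with LY3201, an agonist selective for ERb, at 0.5 nM. Groups held 2 arrays, except untreated BERKO MN with 3, and each array was made from 150 ng of total RNA. The protocol gives 4 days of LY3201 or of the vehicle DMSO for NPC and mDPC, and the samples without LY3201 are labelled as untreated with no mention of vehicle. How long cells labelled MN with LY3201 were exposed, and whether during that stage itself, is not given. No growth factor was in the MN medium, whereas NPC were expanded with FGFb and mDPC were kept with FGFb, FGF8b and Shh.

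Each stage label was compared with marker genes. Pluripotency markers averaged about 14 on the log2 scale in each mESC array, and their mean stayed between 3.81 and 4.59 in all later arrays. In MN, the astrocyte gene Gfap averaged 18.93 in WT and 18.97 in BERKO, whereas Th, Slc6a3 and Pitx3, which mark dopaminergic neurons, were at or below 3.55 in both, close to the median of all clusters. MN is therefore used below as the name of a stage only. Esr2, the targeted gene, lay between 3.21 and 3.47 in the 14 arrays labelled WT and between 3.80 and 4.46 in the 15 labelled BERKO, which is the reverse of what the label says and close to background in both. The part of the gene that was deleted is not given in the labels, so this signal neither checks nor contradicts the knockout, and WT and BERKO are used as the labels give them. The series calls the arrays of a group biological replicates, but the titles of both BERKO mESC arrays carry the same number, as do those of both WT NPC arrays with LY3201, so these pairs may come from 1 culture. The p-values rest on the spread between arrays within groups, pooled over all 14 groups, and not on that of the compared groups alone. Genotype and line coincide here, so a genotype difference cannot be told apart from a difference between lines.

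Division runs through a fixed order of steps. The kinase Cdk1 with cyclins A and B starts mitosis, condensing chromosomes attach to spindle microtubules through kinetochores, a checkpoint holds back separation until all are attached, and the central spindle and a contractile ring then part the daughter cells. Many genes of this programme are transcribed late in the cell cycle and are silent in cells that have left it, so their RNA is widely used as a sign of cycling cells, and in the developing nervous system it falls as precursors become post-mitotic. In RNA from a whole culture, fewer cycling cells and less RNA per cycling cell cannot be told apart.

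The 38 genes fall into 7 roles. Entry into mitosis is driven by Cdk1 with Ccna2 and Ccnb2, by the phosphatase Cdc25c, which activates Cdk1, and by the kinases Plk1, Aurka and Melk. Top2a and Mki67 shape and coat the chromosomes. In the kinetochore, Cenpa is the histone variant that marks the centromere, Ndc80, Nuf2, Spc24 and Spc25 form the complex that grips microtubules, and Cenpe and Cenpf lie at its outer face. The spindle checkpoint list holds the kinases Bub1 and Ttk, Bub1b and Mad2l1, and their target Cdc20, which activates the anaphase-promoting complex. Aurkb, Incenp, Birc5 and Cdca8 (borealin) make up the chromosomal passenger complex, which corrects wrong attachments. Spindle motors and microtubule binders are the kinesins Kif11, Kif15, Kif18b, Kif2c and Kif4, with Nusap1 and Tpx2. Prc1, Kif20a, Kif23, Racgap1, Ect2 and Anln build the central spindle and the contractile ring.

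All levels are log2 values as deposited. They are compared for the same gene between arrays only, since a probe set's level depends on its probes. The 95th percentile of the negative control probe sets lay between 6.63 and 7.66, depending on the array. A level below it is not clearly told from background, and a difference to such a level is a lower bound for the change in RNA. In mESC, 36 of the 38 genes in WT and 37 in BERKO lay above that limit in every array of the group. The number was 33 in WT NPC and 37 in BERKO NPC. It was 3 in WT mDPC (Mki67, Top2a and Kif11) and 0 in BERKO mDPC. It was 17 in WT MN, 27 in WT MN with LY3201, 30 in BERKO MN and 29 in BERKO MN with LY3201.

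Over the 4 stages the mitosis genes were high in stem cells and NPC, lowest in mDPC, and intermediate in MN. The mean over the 38 genes, in single arrays, was 11.08 and 11.03 in WT mESC, 9.65 and 9.80 in WT NPC, 5.64 and 5.66 in WT mDPC, and 7.25 and 7.05 in WT MN. In BERKO it was 11.06 and 11.13 in mESC, 10.57 and 10.62 in NPC, 4.94 and 4.88 in mDPC, and between 7.88 and 8.01 in the 3 MN arrays. The arrays of a stage and genotype lay close together, and no array of one stage overlapped another stage within a genotype. Every one of the 38 genes had its lowest group mean in a BERKO mDPC group, untreated or with LY3201. The share of all genes lowest there was not counted. These lowest means lay under the background limit, so their distance from other mDPC groups is not a measured size. Without LY3201, Incenp (6.56 against 6.54) and Mad2l1 (5.93 against 5.76) were slightly higher in BERKO mDPC than in WT mDPC. The highest group mean was in an mESC group for 25 genes and in a BERKO NPC group for the other 13, which include Mki67, Ccna2, Cenpe, Cenpf, Nuf2 and Prc1.

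**Figure D1:**
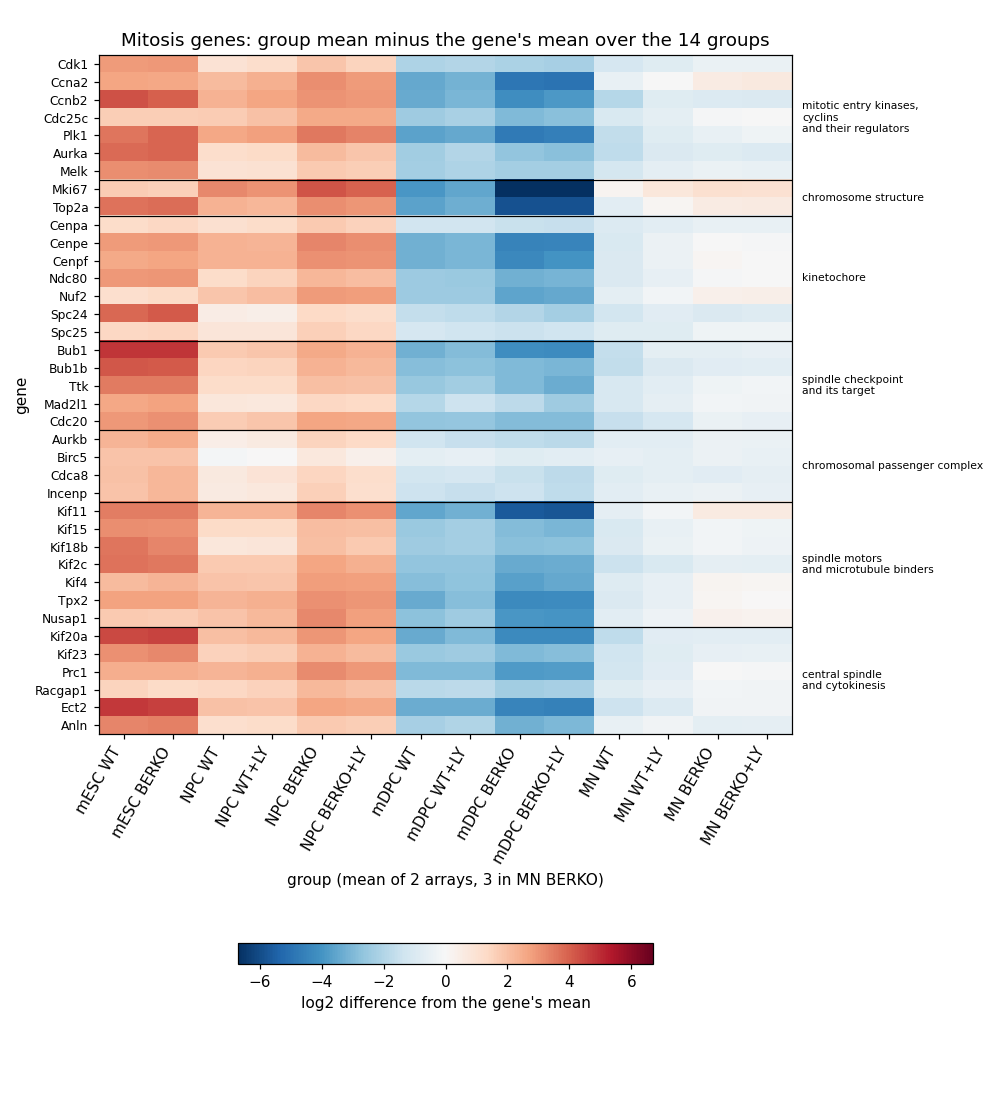
Group means of the 38 mitosis genes (rows, ordered by role) in the 14 groups (columns), each as the log2 difference from the gene's own mean over the groups; red is above and blue below that mean. The mDPC columns are blue for all 38 genes, deepest in BERKO for Mki67, Top2a and Kif11. The MN columns lie between them and the NPC columns, except for Birc5. Its mean in WT MN with LY3201 (3.73) lies below that in WT mDPC with LY3201 (3.80).

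The genes moved together. The correlation of a gene's 14 group means with the mean of the other measured mitosis genes had a median of 0.978, a lowest value of 0.823 (Birc5) and a highest value of 0.998 (Ndc80). These correlations are descriptive, over groups that share culture stages. Spc24 and Mki67 came next to Birc5 with 0.898 each. Spc24, a subunit of the Ndc80 kinetochore complex, was far higher in stem cells than later. Mki67, whose protein Ki-67 coats mitotic chromosomes, had its highest levels in NPC. The spread between the highest and the lowest group mean ranged from 2.71 for Birc5 to 10.93 for Mki67, with a median of 6.53. Birc5 (survivin) had low levels throughout, from 6.14 to 6.42 in mESC down to 3.53 in mDPC, under the background limit in all 29 arrays.

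Outside the mitosis genes and the related lists, the 10 genes whose 14 group means followed those of the mitosis genes most closely, by Pearson r, were Cip2a, Shcbp1, Gm13167, Gm13237, Gm13232, Hmgb2, Kpna2, Gm13160, Parpbp and Gm15452, with r from 0.991 to 0.998. Of the 100 genes with the highest r, out of 22063, 34 were mitosis genes themselves, 24 belonged to a list of other mitotic genes and 1 to a list of DNA replication genes. The mean used here included every mitosis gene, so the high rank of the 34 is partly built in.

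Because these genes moved together, their promoters were searched for motifs known from genes with peak transcription late in the cell cycle. The RefSeq table (GRCm38.p6) held windows from 250 bases before to 50 bases after the start for 32 of the 40 genes, and motifs were searched on both strands. The cell cycle genes homology region, or CHR element, here TTTGAA, was in a window of 24 of the 32 genes (75%), against 20.2% of all 27025 genes in the table. The CCAAT box, here CCAAT, was in 23 of 32 (71.9%) against 41.1%, and in 70.4% of 71 other mitotic genes and 64% of 25 DNA replication genes. The CHR element was in 47.9% and 16% of these. Both were present in 20 of 32 (62.5%) against 7.97% of all genes, 38% of the other mitotic genes and 12% of the replication genes, and at least 2 CCAAT boxes in 16 of 32 (50%) against 13.3%. The CHR variant TTTAAA was in 28.1% of the genes against 14.9%. The E2F site TTTCCCGC, found in 20% of the DNA replication genes, 8.45% of the other mitotic genes and 1.24% of all genes, was in none of the 32, and TTTGGCGC was in 1 of them (3.12%), against 20%, 5.63% and 0.585%. A match describes these letters in this window and shows no binding. Promoters of Mki67, Kif11 and Plk1 are printed, as examples that hold both motifs and have the highest mean level among such genes of their role. Each shows the 250 bases before the start, 5′ to 3′ on the gene's strand, with CHR elements and CCAAT boxes of either strand in capitals; TTCAAA and ATTGG are their reverse complements. Mki67 lies on the minus strand (chr7:135716380-135716629), Kif11 on the plus strand (chr19:37376132-37376381) and Plk1 on the plus strand (chr7:122159185-122159434).
Mki67: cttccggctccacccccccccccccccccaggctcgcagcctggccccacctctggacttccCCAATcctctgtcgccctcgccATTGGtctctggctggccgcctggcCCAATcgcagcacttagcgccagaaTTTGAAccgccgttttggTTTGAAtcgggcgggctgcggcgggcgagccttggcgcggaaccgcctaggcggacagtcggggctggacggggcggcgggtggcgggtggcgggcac
Kif11: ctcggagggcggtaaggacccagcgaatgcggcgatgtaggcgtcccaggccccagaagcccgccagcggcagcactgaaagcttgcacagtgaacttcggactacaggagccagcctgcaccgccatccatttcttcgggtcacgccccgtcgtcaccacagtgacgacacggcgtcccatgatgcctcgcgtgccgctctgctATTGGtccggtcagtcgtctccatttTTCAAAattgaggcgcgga
Plk1: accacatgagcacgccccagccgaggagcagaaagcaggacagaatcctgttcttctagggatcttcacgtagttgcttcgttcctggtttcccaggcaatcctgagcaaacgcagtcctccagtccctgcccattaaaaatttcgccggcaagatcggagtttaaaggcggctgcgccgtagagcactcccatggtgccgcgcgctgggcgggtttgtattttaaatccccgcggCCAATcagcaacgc
Mki67 had 3 CCAAT boxes followed by 2 CHR elements closer to the start. Kif11 had 1 CCAAT box and 1 CHR element, in the same order. Plk1 had 1 CCAAT box in the printed bases, and its CHR element began at position 31 after the start, beyond them.

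From stem cells to NPC, most mitosis genes fell, but not all of them did, and the proportion differed between genotypes. In WT, 29 of 38 fell and 2 rose, with a median log2 difference of -1.43 (limma, adjusted p under 0.05, here and for every later call). Of all genes tested, 35% fell and 27.9% rose in this step. In BERKO, 23 fell and 12 rose, with a median of -0.76, where 35.9% of all genes fell and 27.7% rose. The deepest falls in WT were those of Spc24 by 3.38 ± 0.14 (SE, n = 2 arrays against 2, adjusted p = 2.01e-14), the checkpoint kinase Bub1 by 3.00 ± 0.15 and the kinesin Kif18b, which limits the length of astral microtubules, by 2.85 ± 0.15. All 5 checkpoint genes and all 4 genes of the chromosomal passenger complex fell in both genotypes.

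Mki67 and the kinetochore gene Nuf2 were the 2 that rose in WT. Mki67 read 13.57 and 13.45 in WT mESC and 14.83 and 15.19 in WT NPC. In BERKO it read 13.25 and 13.54 in mESC and 15.91 and 16.12 in NPC. The stages did not overlap in either genotype. The rise was 1.5 ± 0.20 in WT (adjusted p = 1.64e-06) and 2.62 ± 0.20 in BERKO (adjusted p = 4.97e-10). Nuf2 rose by 0.77 ± 0.09 in WT and by 1.57 ± 0.09 in BERKO. Of the DNA replication genes, all 29 measured fell in WT, by a median of 3.33. In BERKO 28 fell and 1, Rrm1, rose by 0.31 ± 0.09, with a median of -2.85 over the list.

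Stem cells of both genotypes differed little in these genes. Ccna2, cyclin A2, read 12.35 and 12.40 in WT mESC and 12.32 and 12.39 in BERKO mESC. Kif11, the motor that pushes spindle poles apart, read 14.30 and 14.25 against 14.26 and 14.21. The arrays of both genotypes overlapped for both genes. None of the 38 was called between genotypes in mESC by limma, where 4.21% of all genes tested were called in either direction, and 3 had an unadjusted p under 0.05. The differences ranged from -0.34 to 0.32, with a median of 0.05.

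In NPC, all 38 mitosis genes were higher in BERKO than in WT, against 10.6% of all genes called higher. The median difference was 0.86 and the range 0.65 to 1.32. Ccna2 read 11.73 and 11.98 in WT and 12.92 and 12.81 in BERKO. Aurkb, the kinase of the chromosomal passenger complex, read 6.44 and 6.58 against 7.49 and 7.59, and Nuf2 read 10.69 and 10.84 against 11.74 and 11.75. In each case both BERKO arrays lay above both WT arrays. The largest differences were those of Nusap1, a spindle protein that bundles microtubules, with 1.32 ± 0.14 (n = 2 against 2, adjusted p = 1.26e-06), Kif18b with 1.25 ± 0.15 (adjusted p = 6.01e-06) and Aurkb with 1.03 ± 0.10 (adjusted p = 4.16e-07), 2.50-, 2.38- and 2.04-fold. The WT levels of Aurkb lay under the background limit, so its difference is a lower bound. The smallest were those of the checkpoint gene Mad2l1 with 0.65 ± 0.15, Anln, the ring protein anillin, with 0.65 ± 0.12, and Ect2, which activates RhoA at the cell equator, with 0.68 ± 0.10. Plk1, a kinase needed from mitotic entry to exit, was 1.95-fold higher and Bub1 1.69-fold.

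Related lists went the same way in NPC. Of 77 measured genes from a list of other mitotic genes, 62 were higher in BERKO and none lower, with a median of 0.61; Ube2c, the ubiquitin-conjugating enzyme of the anaphase-promoting complex, with 1.34 ± 0.16, and Ckap2l with 1.16 ± 0.15 led it, while Cdc25a (-0.06) was lowest. Of 29 DNA replication genes, 18 were higher and none lower, with a median of 0.44, led by the ribonucleotide reductase subunits Rrm2 with 0.87 ± 0.15 and Rrm1 with 0.80 ± 0.09. The median over all genes tested was 0.03. Mesenchymal markers moved with genotype in the other direction: 5 of 6 were lower in BERKO NPC, and their mean level lay at 7.45 and 7.51 in WT and at 5.17 and 5.32 in BERKO. Their part in the difference of the mitosis genes was not tested.

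From NPC to mDPC the mitosis genes fell steeply. All 38 fell in WT (15.8% of all genes did), with a median of -4.20, and all 38 fell in BERKO (18.9%), with a median of -5.48. Nearly all mDPC levels lay under the background limit, so the sizes are lower bounds. Mki67 went from 14.83 and 15.19 to 7.96 and 7.83 in WT, and from 15.91 and 16.12 to 5.12 and 5.05 in BERKO. Kif11 went from 12.99 and 13.18 to 7.25 and 7.38 in WT, and from 14.08 and 14.11 to 5.24 and 5.10 in BERKO. The groups lay far apart in each case. The fall of Mki67 was 7.11 ± 0.20 in WT and 10.93 ± 0.20 in BERKO, and that of Top2a, the topoisomerase that untangles chromosomes, was 5.94 ± 0.12 and 8.99 ± 0.12. The smallest falls in WT were those of Birc5 by 0.54, Aurkb by 1.82 and Cdca8 by 1.86, but these 3 lay under the background limit in WT NPC as well, so the size of their falls was not measured. In BERKO the smallest were those of Birc5 by 1.52, Cdca8 by 2.91 and Incenp by 2.97. In the other mitotic genes 71 of 77 fell in WT, with a median of -1.71, and Zwint and Pttg1 stayed uncalled at 0.27 each. Mesenchymal markers also fell in this step in WT, all 6 of 6, to means of 4.72 and 4.74, 4 of 6 astrocyte markers rose, and their part was not tested.

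Between genotypes, the order seen in NPC was turned around in mDPC. Of the 38 genes, 25 were lower in BERKO mDPC and none higher, against 5.32% of all genes called lower, with a median of -0.65 and a range from -2.82 to 0.17. Mki67 read 7.96 and 7.83 in WT and 5.12 and 5.05 in BERKO, a difference of -2.82 ± 0.20 (n = 2 against 2, adjusted p = 5.47e-09). Top2a read 7.56 and 7.59 against 5.37 and 5.29, with -2.24 ± 0.12 (adjusted p = 7.89e-11), and Kif11 read 7.25 and 7.38 against 5.24 and 5.10, with -2.15 ± 0.11 (adjusted p = 7.23e-11). These 3 are the genes whose WT arrays lay above the background limit, and their BERKO levels did not, so the differences are lower bounds. For the other 22 called genes both groups lay under the limit, and the size of their differences carries no more than the direction. Ccna2 read 6.14 and 6.49 against 4.84 and 4.91, Plk1 5.99 and 6.36 against 4.96 and 5.04, and Cenpe, the kinetochore motor that brings chromosomes to the spindle equator, 5.66 and 5.58 against 4.45 and 4.36. The arrays of both genotypes did not overlap for any of the 3. Uncalled were 13 genes, among them Cdk1 (-0.07), Bub1b (-0.08), Melk (-0.03), Incenp (0.02) and Mad2l1 (0.17). Of the other mitotic genes, 25 of 77 were lower and only Spag5, by 0.43, was higher. Of the DNA replication genes 11 of 29 were lower, led by the helicase subunits Mcm6 by -1.60 ± 0.14 and Mcm3 by -1.08 ± 0.14. Of the 6 astrocyte markers, 2 were higher in BERKO mDPC and 1 lower, with list means of 11.74 and 11.77 in WT and about 12 in both BERKO arrays, although Gfap alone went from 16.53 to 13.30. Of the 5 markers of the oligodendrocyte lineage, 3 were higher, among them Olig2 (12.64 and 14.91), and 2 of 7 neuronal markers were lower. The part of these cell types was not tested.

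From mDPC to MN the mitosis genes rose again. In WT 35 of 38 rose and none fell (18% of all genes rose), with a median of 1.45. In BERKO all 38 rose (20.1%), with a median of 2.74. Mki67 reached 12.24 and 11.69 in WT and 12.71, 12.97 and 12.90 in BERKO. Ccna2 reached 9.33 and 9.12 against 10.12, 10.27 and 10.42, and Kif11 10.42 and 10.07 against 11.32, 11.51 and 11.40. No MN array overlapped an mDPC array of its genotype for these genes. The rise of Mki67 was 4.07 ± 0.20 in WT and 7.78 ± 0.18 in BERKO (n = 2 against 3), that of Kif11 was 2.93 ± 0.11 and 6.24 ± 0.10, and both start from a level in BERKO that was under the background limit. Birc5 (0.15, adjusted p = 0.343), Spc25 (0.31, adjusted p = 0.0599) and Spc24 (0.33, adjusted p = 0.0574) were the 3 that did not pass in WT. The median over all genes tested was -0.10 in WT and -0.14 in BERKO. The other mitotic genes were less uniform, with 43 of 77 higher and 9 lower in WT; Ube2c (2.35 ± 0.16) and Pbk (2.34 ± 0.17) led and Cdc25a (-1.10 ± 0.15) and Zwint (-0.80 ± 0.15) were lowest. Markers of several other cell types rose in the same step in WT, among them 5 of 6 mesenchymal, all 3 ependymal and 4 of 7 neuronal markers, and their part was not tested. The MN levels stayed below those of the same genotype's NPC for all 38 genes, in WT by a median of 2.68 (27.5% of all genes were lower) and in BERKO by 2.61 (32.1%). They also stayed below mESC for all 38, by 3.88 (38.4%) and 3.01 (42.7%).

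**Figure D2:**
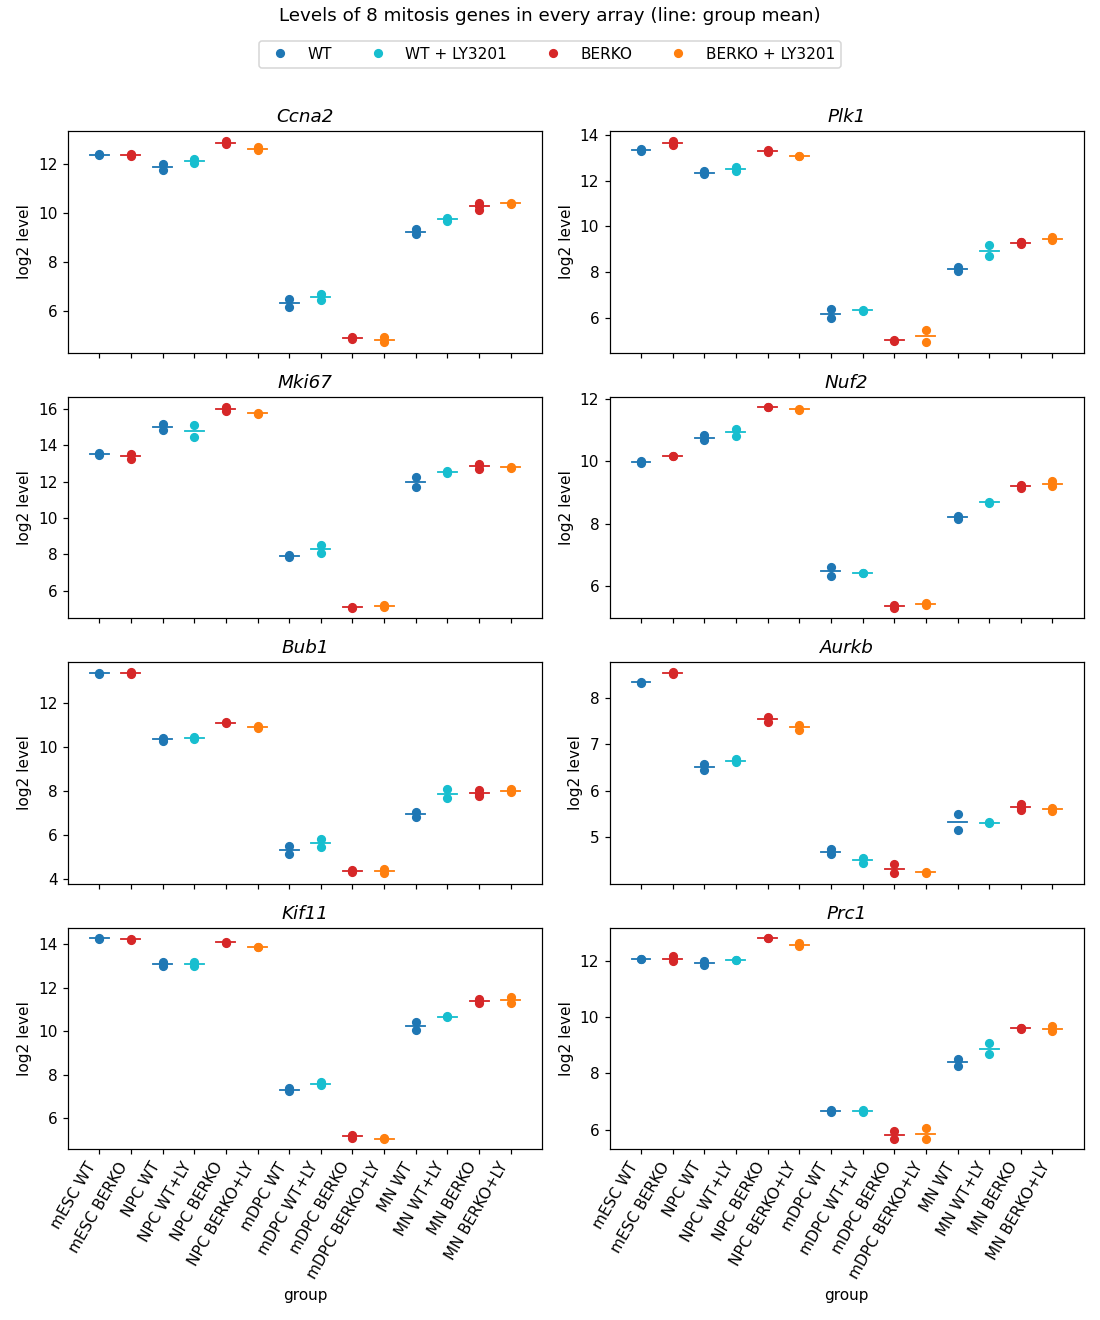
Log2 level of 8 mitosis genes in every array (points) with the group mean (line), in the 14 groups along the horizontal axis; colours give genotype and LY3201. With and without LY3201, BERKO points lie above WT points in NPC and MN and below them in mDPC for Ccna2, Plk1, Mki67, Nuf2, Kif11 and Prc1. Bub1 does so in NPC and mDPC, but in MN the WT arrays with LY3201, at 7.66 and 8.10, overlap the BERKO arrays.

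In MN, 34 of 38 mitosis genes were higher in BERKO than in WT and none lower, against 13.5% of all genes called higher, with a median of 0.89. Top2a read 10.61 and 10.37 in WT and 11.55, 11.82 and 11.81 in BERKO, and Prc1, which bundles the microtubules of the central spindle, read 8.51 and 8.28 against 9.57, 9.60 and 9.61. Plk1 read 8.21 and 8.02 against 9.23, 9.34 and 9.31. The 3 BERKO arrays lay above both WT arrays for each. These were also the 3 largest differences, with 1.24 ± 0.11 for Top2a (n = 3 against 2, adjusted p = 5.18e-08), 1.2 ± 0.12 for Prc1 (adjusted p = 4.06e-07) and 1.17 ± 0.15 for Plk1 (adjusted p = 6.03e-06), which is 2.36-, 2.30- and 2.26-fold. All 7 kinase and cyclin genes, all 5 checkpoint genes and all 7 spindle motors and microtubule binders were called. Of the passenger complex, Aurkb (0.33 ± 0.09) and Incenp (0.30 ± 0.10) were called and Birc5 (0.12) and Cdca8 (0.07) were not. Aurkb, Birc5, Cdca8, Melk and Cenpa lay under the background limit in both genotypes, so the size of their differences cannot be set against those of other genes. Spc25, Cdc20 and Cdc25c lay under it in WT and were not above it in every BERKO array. For the genes under the limit in WT MN alone, among them Ccnb2, Cdk1 and Bub1b, the difference is a lower bound. Spc24 (0.29, adjusted p = 0.109) and Anln (-0.15, adjusted p = 0.394) completed the 4 that were not called. Anln read 7.94 and 7.64 in WT and 7.54, 7.71 and 7.66 in BERKO, so its arrays overlapped.

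The same lists of related genes were higher in BERKO MN, with 50 of 77 other mitotic genes (median 0.47, Ckap2l 1.41 ± 0.13) and 14 of 29 DNA replication genes (median 0.29, Rrm2 0.88 ± 0.14), and none lower in either. Several marker lists moved with genotype at this stage. All 7 neuronal markers were lower in BERKO, with list means of 8.22 and 10.06 in the WT arrays and 7.59 to 7.81 in the BERKO arrays. All 6 mesenchymal markers were lower, with means of 7.39 and 7.45 against 4.82 to 5.06, and that of Dcn was 10 in WT and 4.35 in BERKO. All 3 ependymal markers were higher, with means of 6.20 and 6.32 against 8.12 to 8.79. The precursor gene Nes was higher (13.32 against 14.28), but the mean of the precursor and radial glia markers moved less. It was 12.04 and 12.17 in WT and 12.36 to 12.50 in BERKO. The mean of the astrocyte markers was 12.11 and 12.27 in WT and 12.64 to 12.69 in BERKO. The microglial genes Ptprc and Tyrobp lay at 3.04 and 2.68 in WT and 3.02 and 2.80 in BERKO, below the median of all clusters on the array. The part of these cell types in the difference was not tested.

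**Figure D3:**
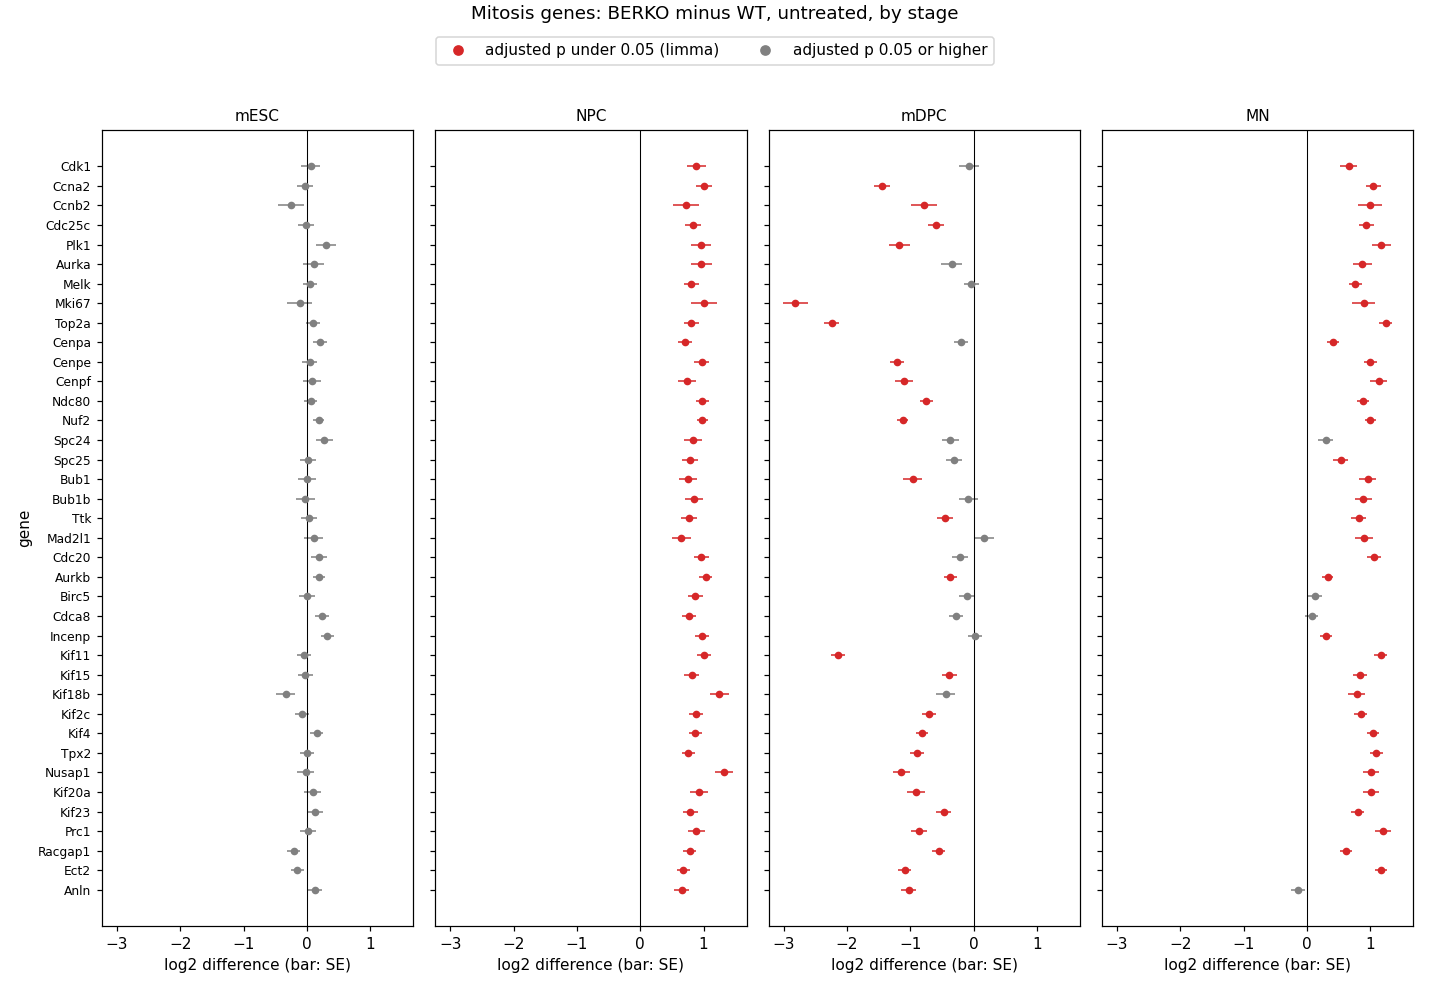
Difference between BERKO and WT without LY3201 for each of the 38 mitosis genes at the 4 stages, as log2 BERKO minus WT with its SE (bars); red points passed an adjusted p of 0.05 and grey points did not. All points are grey in mESC, all are red and above 0 in NPC, 25 are red and below 0 in mDPC, and 34 are red and above 0 in MN.

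In all, 24 of the 38 genes were called higher in BERKO NPC, lower in BERKO mDPC and higher in BERKO MN. The share of all genes tested with this pattern was not counted. In mDPC only the WT levels of Mki67, Top2a and Kif11 lay above the background limit. The difference of each step between genotypes was tested in the same model; the arrays of NPC and of mDPC each enter 2 of these steps, so the steps are not independent. From mESC to NPC, 33 genes changed more in the upward direction in BERKO (6.35% of all genes did), with a median difference of the steps of 0.83, led by Kif18b with 1.59 ± 0.21 and Nusap1 with 1.34 ± 0.19. Without the first WT NPC array the number was 19. From NPC to mDPC, 37 genes fell further in BERKO (4.99%), with a median of -1.54, and Mad2l1 alone was not called (-0.47, adjusted p = 0.211). Because the mDPC levels of all but Mki67, Top2a and Kif11 lay under the background limit in both genotypes, the differences of the steps into and out of mDPC are not measured sizes. Cdk1, for example, differed by -0.07 between genotypes in mDPC and by 0.89 in NPC. For Mki67 the difference of this step was -3.82 ± 0.28, with only its BERKO mDPC level under the limit. From mDPC to MN, 35 rose further in BERKO (7.31%), with a median of 1.41 and 3.71 ± 0.27 for Mki67, and Birc5, Incenp and Cdca8 were not called. With the mDPC levels so near background, the counts of 37 and 35 in part restate the genotype differences in NPC and MN.

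The genotype differences were also measured among cells given LY3201, on other arrays. In NPC with LY3201, 33 genes were higher in BERKO and none lower (4.56% of all genes were higher), with a median of 0.61. All 38 were called without LY3201, so the overlap of these calls was fixed in advance. Mki67 had the largest difference, 0.97 ± 0.20, and Ccnb2, cyclin B2, the smallest, 0.26 ± 0.21, uncalled. Leaving out the first BERKO NPC array with LY3201 left 20 called. In mDPC with LY3201, 29 were lower and none higher (8.1%), with a median of -0.79, and 24 of them were also lower without LY3201. Mki67 (-3.17 ± 0.20), Top2a (-2.57 ± 0.12) and Kif11 (-2.52 ± 0.11) again had the largest differences. They were the 3 genes above the background limit in every array of WT mDPC with LY3201. In BERKO mDPC with LY3201 the number was 0. Their differences are therefore lower bounds, and the sizes for the other genes and the median were not measured. In MN with LY3201, 18 were higher (9.01%) and 1, Anln, was lower by 0.36 ± 0.12 (10.6%), with a median of 0.33. All 18 were among the 34 higher without LY3201, an overlap that was nearly fixed because 34 of 38 genes were called there. Kif11 (0.76 ± 0.11), Prc1 (0.70 ± 0.13) and Ect2 (0.68 ± 0.10) led. Of these 19 calls in MN, 6 were left when only the compared arrays were fitted and 12 without the second BERKO array with LY3201.

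LY3201 had no called effect on a mitosis gene in NPC or mDPC of either genotype by limma. Counts at an unadjusted p under 0.05, here and elsewhere, are given without the share of all genes at that p. They are therefore not read as a result. In WT NPC 0 of 38 were called (0.00453% of all genes) and 2 had an unadjusted p under 0.05, both higher. In BERKO NPC 0 were called (0% of all genes) and 6 had an unadjusted p under 0.05, all lower, with the lowest differences for Incenp (-0.45 ± 0.11) and Nusap1 (-0.44 ± 0.14). In WT mDPC 0 were called (0.0635%) and 8 had such a p, all higher, with the highest differences for Mad2l1 (0.54 ± 0.15) and Tpx2 (0.50 ± 0.11). In BERKO mDPC 0 were called (0.113%), with 2 higher and 5 lower at that p. A test of whether the LY3201 effect differed between genotypes called 0 genes in NPC (0.499% of all genes), where 11 had an unadjusted p under 0.05, and 0 in mDPC (0%), where 7 did.

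In WT MN, 18 of the 38 mitosis genes were higher with LY3201 and none lower, against 1.55% of all genes called higher, with a median of 0.46 over the 38. Ccnb2, cyclin B2, had the largest difference and read 6.83 and 6.55 without LY3201 and 7.37 and 8.11 with it. Bub1 read 7.05 and 6.84 against 7.66 and 8.10, and Kif20a, the kinesin that carries the passenger complex to the central spindle, 7.63 and 7.48 against 8.23 and 8.73. In each case both arrays with LY3201 lay above both without it, and the second array with LY3201 was the higher. The levels of Ccnb2 without LY3201 lay under the background limit, so its difference is a lower bound. The same holds for the called genes Aurka, Bub1b and Kif23. Kif15 and Kif2c were not above the limit in every array without LY3201. Melk lay under it with and without LY3201, so the size of its difference was not measured. Ccnb2 differed by 1.05 ± 0.21 (n = 2 against 2, adjusted p = 0.015), Bub1 by 0.94 ± 0.15 (adjusted p = 0.00582), Kif20a by 0.93 ± 0.14 (adjusted p = 0.00582), Plk1 by 0.82 ± 0.16 (adjusted p = 0.015) and Top2a by 0.81 ± 0.12 (adjusted p = 0.00582), that is 2.08-, 1.92-, 1.90-, 1.76- and 1.76-fold.

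By role, 5 of 7 kinase and cyclin genes were called, and Cdk1 (0.32) and Cdc25c (0.34) were not. In the kinetochore 4 of 7 were called, Cenpe with 0.62 ± 0.11, Cenpf, Nuf2 with 0.49 ± 0.09 and Ndc80, while Spc25 was at 0.02. Of the checkpoint genes Bub1 and Bub1b were called, of the spindle motors and microtubule binders Kif15, Kif2c and Tpx2, and of the central spindle genes Kif20a, Kif23 and Ect2. None of the 4 passenger complex genes was called, and none had an unadjusted p under 0.05; Aurkb read 5.49 and 5.15 without LY3201 and 5.31 and 5.32 with it, which is under the background limit. Mki67 read 12.24 and 11.69 without LY3201 and 12.59 and 12.50 with it. Its arrays did not overlap, but the first array without LY3201 was close to those with it. Its difference of 0.58 ± 0.20 was not called (adjusted p = 0.163). In the related lists 16 of 77 other mitotic genes were higher (median 0.30), led by Hmmr with 0.82 ± 0.13 and Gtse1 with 0.82 ± 0.14, and 15 of 29 DNA replication genes (median 0.43), led by Mcm2 with 0.91 ± 0.13 and Rrm2 with 0.82 ± 0.15. None was lower in either.

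The count of 18 was 3 without the second WT MN array and 2 without the second WT MN array with LY3201, and 17 without either of the other arrays of the comparison. It was 8 after quantile normalization, and 0 with a limma fit to the 4 compared arrays alone, where 26 had an unadjusted p under 0.05. The median over the genes lay between 0.36 and 0.55 in all of these. The neuronal markers differed between the arrays of a group: their mean was 8.22 and 10.06 in WT MN and 8.0 and 9.08 in WT MN with LY3201. None of the 7 was called, with a median of -0.59. None of the 6 mesenchymal markers was called either, at means of 7.39 and 7.45 without LY3201 and 7.27 and 8.14 with it. The part of either in the result was not tested.

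In BERKO MN, LY3201 left no mitosis gene called by limma (0.344% of all genes were called), and none had an unadjusted p under 0.05. The differences ran from -0.17 to 0.17 with a median of -0.02. Ccnb2 read 7.81, 7.53 and 7.69 without LY3201 and 7.35 and 7.86 with it, and Bub1 read 7.85, 8.06 and 7.79 against 7.94 and 8.08. The arrays overlapped for both. The LY3201 effect differed between genotypes for 3 genes, all with the smaller effect in BERKO (0.594% of all genes were called in that direction). These were Kif20a with -0.94 ± 0.19 (adjusted p = 0.0305), Top2a with -0.77 ± 0.16 (adjusted p = 0.0368) and Cenpe with -0.69 ± 0.15 (adjusted p = 0.0456), where n = 2, 2, 3 and 2 arrays. Another 26 had an unadjusted p under 0.05 in the same direction, and the median was -0.48. Ccnb2 (-1.13 ± 0.28, adjusted p = 0.069) and Bub1 (-0.83 ± 0.20, adjusted p = 0.0614) did not pass. The number called ranged from 0 to 11 as single arrays were left out. It was 0 without the second WT array, the second WT array with LY3201, the third BERKO array or either BERKO array with LY3201, 7 without the first WT array and 11 without the first WT array with LY3201. In the 5 fits that called none, limma gave between 18 and 26 genes an unadjusted p under 0.05. With LY3201, WT MN had a mean over the 38 genes of 7.55 and 7.67, between the 7.25 and 7.05 of untreated WT MN and the 7.88 to 8.01 of untreated BERKO MN.

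**Figure D4:**
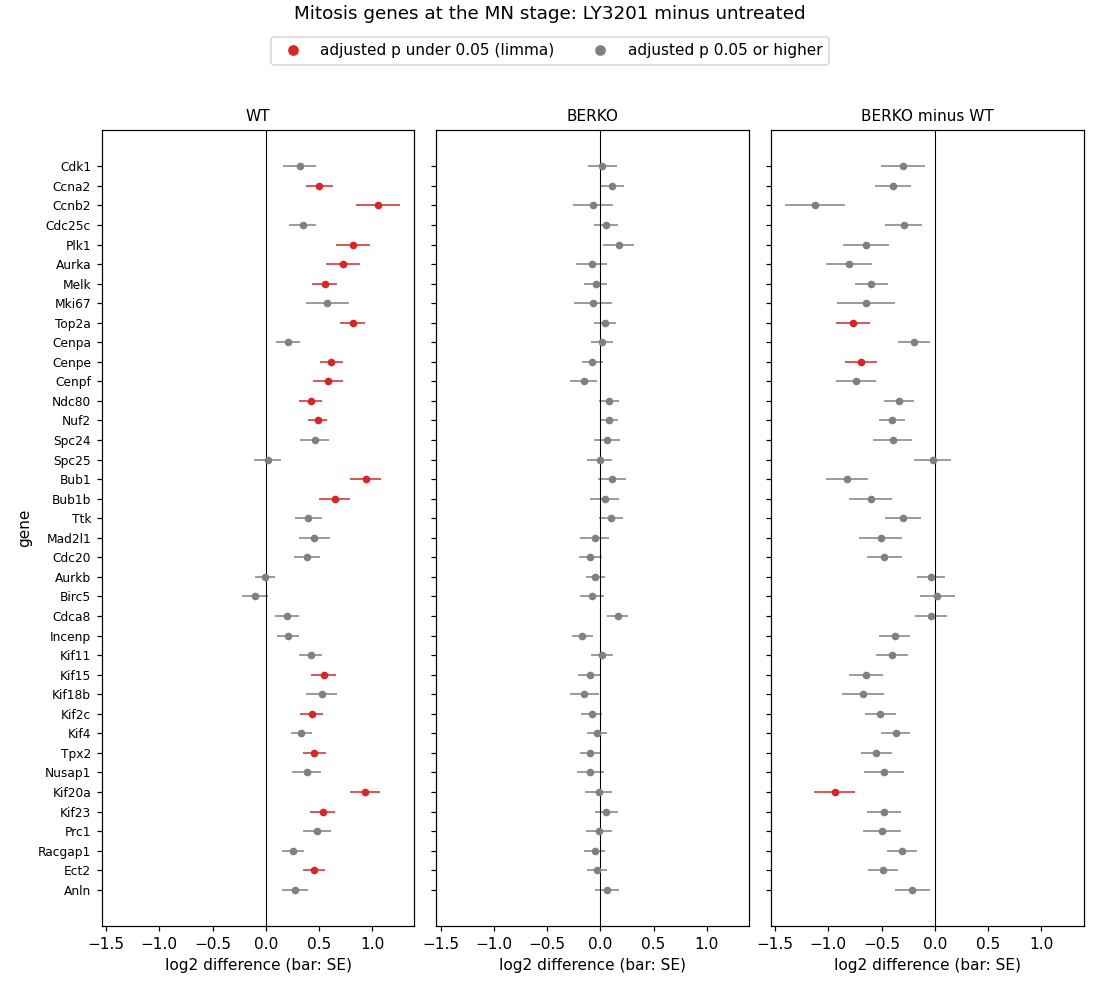
Difference between MN with and without LY3201 for each of the 38 mitosis genes in WT, in BERKO, and the BERKO effect minus the WT effect, on the log2 scale with its SE (bars); red points passed an adjusted p of 0.05. In WT 18 points are red and all are above 0, in BERKO all are grey between -0.17 and 0.17, and in the difference Kif20a, Top2a and Cenpe are red.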

How the data were processed

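The deposited log2 values are SST-RMA output of the software Affymetrix Expression Console 1.4, per the labels. The submitters' processing notes add RMA and Transcriptome Analysis Console, without versions. The genome build of the clusters is not given in the sources used here. Deposited values were used as given. Each gene took its cluster with 1 symbol, and the one with the highest mean where there were several. limma 3.58.1 in R 4.3.3 fitted all 29 arrays with 1 mean per group (15 residual degrees of freedom) on the 22063 genes that passed the filter, with Benjamini-Hochberg adjustment over all of them, 2-sided. In simulated data on 22063 genes, 46% of log2 changes of 0.5 and 88% of changes of 1 were recovered for LY3201 in WT MN, and 12% and 62% for its difference between genotypes. The 40 genes and all other lists were chosen with earlier results of these data known. Values in every array are given for the gene with the highest mean and the gene with the widest range in each of 7 roles, and for the 3 highest and 3 lowest differences of a comparison; all mitosis genes may be named, and promoters printed for up to 6 with both motifs. Also named were, per related list, genes at the ends of its range of differences, the 10 genes most alike in pattern, marker genes and Esr2. Alternatives were no filter, quantile normalization, a stricter filter (above the 75th percentile), limma's trended robust prior, the cluster with the lowest mean, a fit to the compared groups alone, arrays with a shared title number averaged, and each array left out. Figures were drawn with matplotlib 3.10.9. The number of arrays limits the precision.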

Additional observations from a re-analysis of the deposited data

Results flagged for a closer look

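The tests of the difference between genotypes called mitosis genes in 4 of 6 cases. The step from mESC to NPC differed for 33 genes, from NPC to mDPC for 37 and from mDPC to MN for 35, and the LY3201 effect in MN differed for 3. Most mDPC levels lay under the background limit, so the sizes of the steps into and out of mDPC were not measured. The counts for these steps in part restate the genotype differences in NPC and MN. No explanation was tested.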

How the results depend on the processing

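Counts of called mitosis genes stayed within 1.5 times the reported count in 197 cases under other settings and moved further in 6; with 1 array left out they stayed in 135 and moved in 12. No count turned direction, and for comparisons with called genes the median over the 38 genes kept its sign under all alternatives. For LY3201 in WT MN (18 called) the count was 8 after quantile normalization, 0 with the compared groups alone (26 at an unadjusted p under 0.05, limma) and 2 to 17 with 1 array left out. For its difference between genotypes (3 called) it was 6 with the stricter filter, 0 after quantile normalization (17 at an unadjusted p under 0.05), 0 with the compared groups alone (23 at that p, limma) and 0 to 11 with 1 array left out. For genotype in MN with LY3201 (19 called) it was 6 with the compared groups alone and 12 to 16 with 1 array left out. For genotype in NPC with LY3201 (33 called) it was 20 to 26, and for the genotype difference of the step from mESC to NPC (33 called) 19 to 31, with 1 array left out. The cause was not tested; fewer arrays enter a fit to the compared groups alone. A group left with 1 array is assumed to vary like the others. Single genes kept their side of the threshold in 2956 cases under other settings, lost the call in 46 and gained it in 15; with 1 array left out the numbers were 2119, 75 and 9. The other-cluster setting left the 38 genes' values as they were, since each has 1 cluster. No paired analysis was possible because the labels give no replicate numbers shared between groups. Signal under the negative control limit restricts what mDPC differences can show.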
